A study of Lemna gibba with 6 samples.

Results

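Malic enzyme takes malate to pyruvate and CO2 while it reduces NAD or NADP, and the expression of its genes was examined in the duckweed *Lemna gibba*. The family was taken as every gene of the deposited expression table whose enzyme name in the study's reaction table of central metabolism starts with malate dehydrogenase and carries the word decarboxylating. This rule gave 5 genes of the 16340 in the deposited table, and each malic enzyme gene of the reaction table was found there. The genes of the reaction table that could be found in the deposited table numbered 282 of 311.

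Plants hold malic enzymes in several compartments. The NADP-dependent enzymes sit in the cytosol and in plastids, where they supply pyruvate and NADPH, both of which are used in fatty acid synthesis, and in some C4 plants a plastidic form releases CO2 for RuBisCO. The NAD-dependent enzymes are mitochondrial, work as assemblies of related subunits in the plants where they were studied, and let malate be respired without pyruvate from glycolysis.

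Cultures of clone G3 7742a were axenic and grew on liquid Schenk and Hildebrandt medium with 5 g/L glucose at 24 °C in continuous light. The INS group (inorganic nitrogen source) received 12.4 mM nitrate and 1.3 mM ammonium, and in the ONS group (organic nitrogen source) 6.85 mM glutamine stood in for both salts, which potassium chloride and potassium phosphate replaced. Polyadenylated RNA of whole fronds, with their roots, was sequenced in 3 biological replicates per condition. The cultures were 1 clone, so the libraries speak for that clone only.

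The deposited table gives each gene's normalised read count as the authors' mean of the 3 libraries of a condition. Because such a mean is a sum of whole reads with fixed weights, the reads of single libraries could be worked back for 11610 genes, 71.1% of the table. The libraries of a condition are named here by depth (deepest, middle, shallowest), since nothing ties them to replicate numbers. Estimated depth ran from 8324792 to 35807286 reads. The deepest INS library stood apart, with 8.47% of the tested genes at no more than 50% of either other INS library, while this share was 0.827% to 3.45% in the other libraries. As a check of the tissue label, 15 of 16 RuBisCO genes were in the table, and 11 of them had a mean of at least 1000 under INS and 10 under ONS. Counts were not divided by transcript length, so levels are compared between conditions and not between genes.

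No malic enzyme gene met the study's definition of differential expression, which asks for an adjusted p no higher than 0.05 together with a change over 4-fold. This held for 0 of 5 genes under every set of library reads that the deposited means allow, against 2.64% of the 10519 genes tested with limma. Those tested genes all had both condition means under 1000 and a single set of reads. Among the members this was true of A5_001160_1 only, so the shares come from a set filtered otherwise than the family. Without a fold threshold the count was also 0 of 5, against 5.98% of the tested genes. At an unadjusted p under 0.05 the count was 1 of 5, A5_001160_1 as described next, with 18.4% of the tested genes there, and 3 of the 38 possible sets of reads of a second NADP-dependent gene would add that gene. In tissue as mixed as whole fronds, fewer cells of a type and less RNA per cell cannot be told apart.

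The 2 NADP-dependent genes come first. LEMGIv51_A5_001160_1 (shortened to A5_001160_1) is the only gene assigned to the plastidic reaction and is assigned to the cytosolic one as well, and its best annotated match is a grape NADP-dependent malic enzyme. Its normalised read counts in the deepest, middle and shallowest INS library were 179, 201 and 202. In the ONS libraries, in the same order, they were 344, 308 and 384. Each ONS library therefore lay above each INS library, a separation that 11.5% of the tested genes had in this direction. The means were 194 ± 13.1 under INS and 345 ± 38.0 under ONS (SD, n = 3 each).

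The log2 difference of A5_001160_1 was 0.82 with a standard error of 0.22, a 1.77-fold higher level under ONS with a 95% interval from 1.26 to 2.49. Its p in limma was 0.00374 and its Benjamini-Hochberg adjusted p over all tested genes was 0.0589, just outside the threshold. An exact two-sided permutation test gave p = 0.10, the smallest value that 3 against 3 libraries allow. The interval lay wholly below the 4-fold change that the study's definition of differential expression requires. The gene was steady within each condition. Its highest INS library exceeded the lowest by 1.13-fold, and 93.4% of 4201 genes of similar INS mean (within 2-fold) had a wider range. Under ONS the range was 1.25-fold, which 75.1% of 4565 such genes exceeded.

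**Figure D1:**
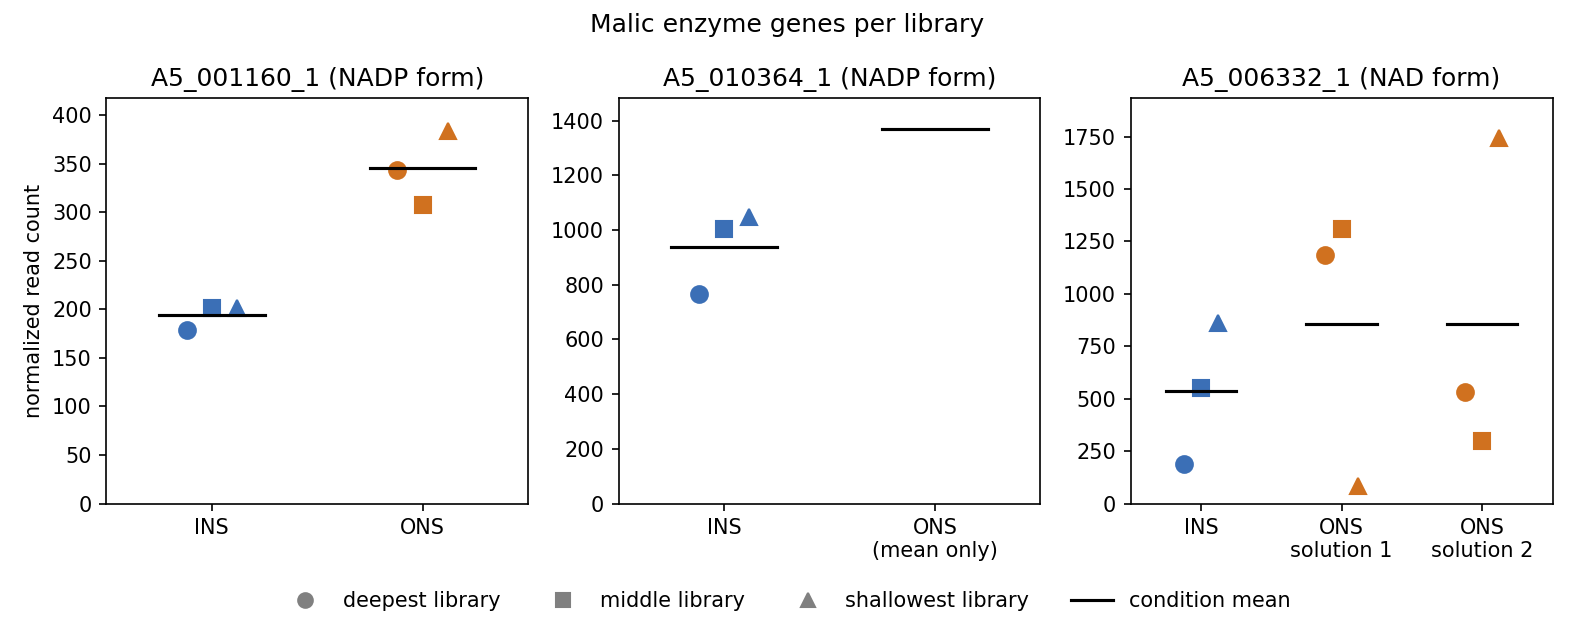
Normalised read count (vertical axis, from 0, own scale in each panel) in each library for the malic enzyme genes A5_001160_1, A5_010364_1 and A5_006332_1. Circles, squares and triangles are the deepest, middle and shallowest library, blue for INS and orange for ONS, and black lines are condition means; the ONS values of A5_001160_1 (308 to 384) lie above its INS values (179 to 202), and both sets of ONS reads possible for A5_006332_1 overlap its INS values.

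LEMGIv51_A5_010364_1 (A5_010364_1) is assigned to the cytosolic reaction alone, although its best annotated match is a chloroplastic enzyme of *Flaveria*. Its INS libraries had normalised read counts of 767, 1003 and 1046, with the lowest value again in the deepest library. The mean was 939 ± 150.1 (SD, n = 3) under INS and 1369 under ONS, a ratio of 1.46. The 3 ONS libraries could not be separated, since 38 sets of whole reads gave the same printed mean.

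Whether the conditions overlapped for A5_010364_1 remained unknown. All ONS libraries lay above all INS libraries in 3 of the 38 sets, and these had log2 differences of 0.54 to 0.55. The lowest adjusted p that any set gave in limma was 0.161, and over all sets the log2 difference ran from -2.14 to 0.55. Without the deepest INS library the upper end was 0.41. Within the INS libraries the ratio of A5_001160_1 to A5_010364_1 was 0.233, 0.201 and 0.193 in order of depth, and the ratio of their condition means went from 0.207 under INS to 0.252 under ONS.

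The 3 remaining genes are assigned to the mitochondrial NAD-dependent reaction. LEMGIv51_A5_013949_1 (A5_013949_1), matched to the 59 kDa isoform of a *Solanum* species, had means of 2475 under INS and 2721 under ONS, a log2 ratio of 0.14. LEMGIv51_A5_006331_1 (A5_006331_1), matched to the 62 kDa isoform, had means of 1383 and 1364, a ratio of 0.986. These are the members whose condition means stood nearest to equality. Their counts were too high for single libraries to be told apart. The printed means allowed 8896 sets of reads for A5_013949_1 and 350 for A5_006331_1, and the lowest adjusted p over the sets was 0.346 and 0.430. No error can be set on either ratio, and a change hidden by the spread between libraries cannot be seen in them.

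LEMGIv51_A5_006332_1 (A5_006332_1), matched to NAD-dependent malic enzyme 1 of *Arabidopsis*, had the widest spread of the 3 members whose INS libraries were known. Its INS libraries had normalised read counts of 190, 550 and 862 in order of depth, from 263, 678 and 385 reads. The ONS mean left 2 sets of reads. One gave 1183, 1307 and 82.1 and the other gave 532, 299 and 1741. The conditions overlapped in either case. The means were 534 under INS and 857 under ONS, and their ratio of 1.60 is the second highest of the family.

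That ratio was smaller than the spread around it. The log2 difference of A5_006332_1 was 0.17 ± 0.91 (SE) with one set and 0.54 ± 0.63 with the other, and the adjusted p in limma was 0.945 and 0.685. Without the deepest INS library the log2 difference of these 2 sets turned to between -0.45 and -0.08. For these sets its sign therefore depended on which libraries were kept. In the first set the ONS values were 1183, 1307 and 82.1, so the mean of their logs also leaned on the low one. The ratio of condition means was not recomputed without the deepest INS library. The highest INS library exceeded the lowest by 4.55-fold, where genes of similar mean had a median of 1.45-fold and 11 of 3744 had a wider range. Under ONS the range was 15.9-fold or 5.83-fold, against a median of 1.41-fold, and the number of genes out of 1981 with a wider range was 0 for the first set and 1 for the second. The low INS value fell in the deepest library, the one described above as standing apart, and the wider spread of this gene under ONS was measured in other libraries.

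**Figure D2:**
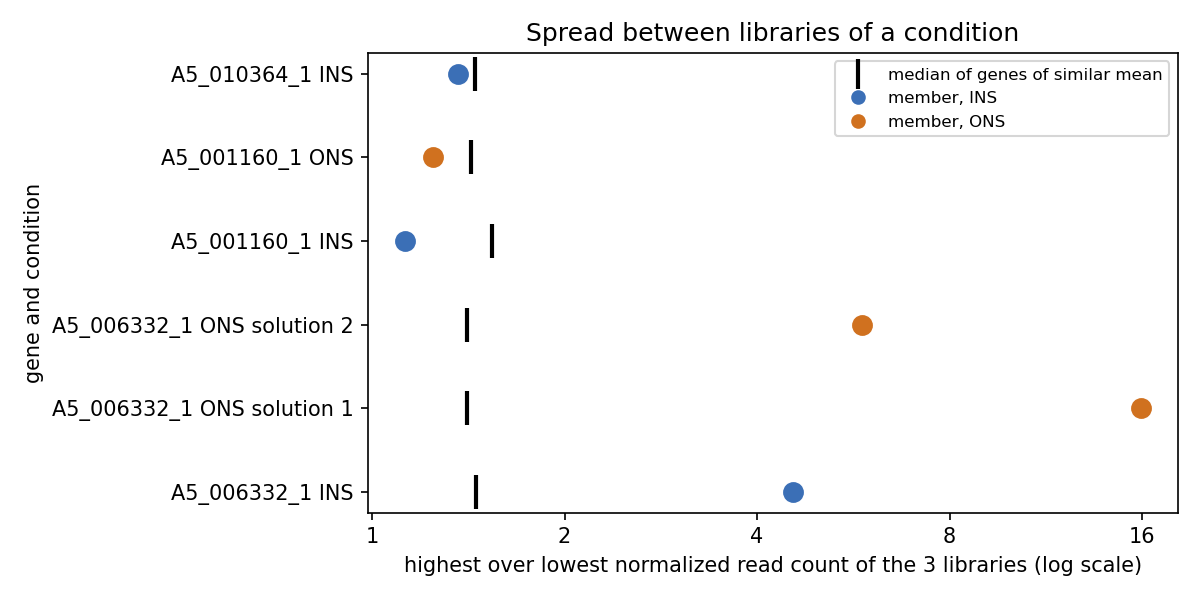
Highest over lowest normalised read count of the 3 libraries of a condition (horizontal axis, log scale) for each malic enzyme gene and condition with at most 2 possible sets of reads. Dots are the members, blue for INS and orange for ONS, and bars are the median of genes whose mean was within 2-fold. With the sets shown, A5_006332_1 reaches 4.55-fold or more in both conditions. A5_001160_1 in both conditions and A5_010364_1 under INS, its only condition shown, stay at or below 1.36-fold, under the medians.

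The identifiers of A5_006331_1 and A5_006332_1 are consecutive and both genes carry the same enzyme name. How reads that match more than 1 transcript were assigned is not given in the sources used here, so their split between these genes is uncertain. The ratio of A5_006332_1 to A5_006331_1 was 0.386 under INS and 0.629 under ONS. This ratio holds the library spread of A5_006332_1 in full and has no error of its own.

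Set in order of their ratio of ONS to INS means, the family ran A5_001160_1, A5_006332_1, A5_010364_1, A5_013949_1, A5_006331_1. On the log2 scale the ratios were 0.83, 0.68, 0.54, 0.14 and -0.02. Among the 12884 genes whose mean was 50 or more, the median was 0.03 and the middle 50% ran from -0.29 to 0.31. The ratio of A5_001160_1 was above that of 96.4% of these genes, A5_006332_1 above 93.8%, and A5_010364_1 above 89.1%. The other two NAD-dependent genes lay inside the middle 50%, A5_013949_1 above 59.3% and A5_006331_1 above 45.1%. Whether neighbours in this order differ was not tested, because single libraries were known in both conditions for A5_001160_1 alone.

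**Figure D3:**
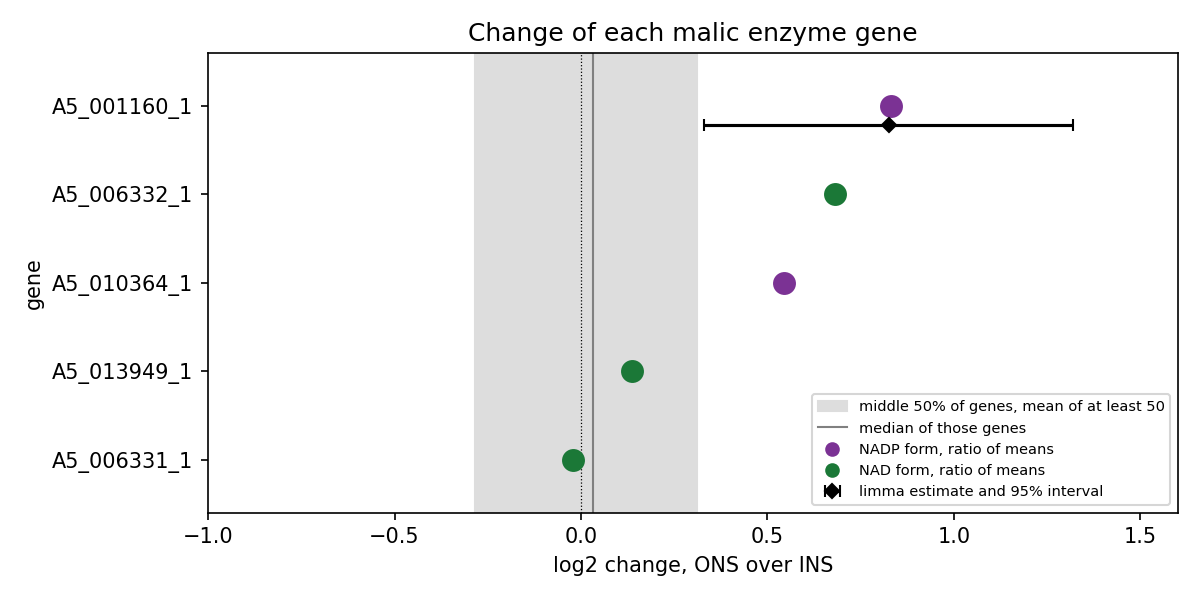
Log2 change from INS to ONS (horizontal axis) of the 5 malic enzyme genes. Large dots are ratios of the authors' condition means, purple for NADP-dependent and green for NAD-dependent genes, the diamond with its bar is the limma estimate for A5_001160_1 with its 95% interval, and the grey band holds the middle 50% of genes with a mean of at least 50; A5_001160_1, A5_006332_1 and A5_010364_1 lie to the right of the band and A5_013949_1 and A5_006331_1 inside it.

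The forms were then compared as sums. The condition means of the NADP-dependent genes added up to 1133 under INS and 1714 under ONS, a ratio of 1.51. For the mitochondrial NAD-dependent genes the sums were 4393 and 4942, a ratio of 1.13. NADP-dependent reads per NAD-dependent read thus went from 0.258 to 0.347, a 1.34-fold higher value under ONS. The sums contain transcript length, so only this change between conditions can be read, and it carries no error. Taken gene by gene, the ratio of an NADP-dependent to an NAD-dependent gene was higher under ONS in 5 of 6 pairs. The pairs share the same genes and restate the order of their ratios, so they are not separate observations. The 5 higher pairs ran from 1.11-fold for A5_001160_1 over A5_006332_1 to 1.81-fold for A5_001160_1 over A5_006331_1. The exception was A5_010364_1 over A5_006332_1 with 0.908-fold. By compartment, the cytosolic reaction had both NADP-dependent genes and the plastidic one had A5_001160_1 alone, so their changes cannot be told apart at the level of transcripts.

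Malate and pyruvate are fed and drained by other enzymes, and their genes were taken from 12 lists of the reaction table. Of 71 listed genes, 58 were in the deposited table and 15 had single library reads and passed the minimum mean of 10. None of these 15 passed an adjusted p of 0.05 in limma at any fold, against 5.98% of all tested genes, and 3 of 15 had an unadjusted p under 0.05, a share near the 18.4% of all tested genes. Over the 58 genes the median log2 ratio of condition means was 0.16 and 41 had the higher mean under ONS. Of all genes whose mean was 50 or more, 53.1% did. The malic enzyme genes had a median of 0.54, and 4 of 5 had the higher mean under ONS.

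On the side that makes malate, the 8 genes of malate dehydrogenase, which interconverts malate and oxaloacetate, were split. Their ratios ran from 0.769 for LEMGIv51_A5_015061_1 to 1.48 for LEMGIv51_A5_003791_1. The median log2 ratio was 0.08, and 5 of 8 had the higher mean under ONS. Fumarase, which makes malate in the TCA cycle, had a ratio of 1.07 for LEMGIv51_A5_014041_1. Malate synthase of the glyoxylate cycle, LEMGIv51_A5_012282_1, had a ratio of 1.48 and an adjusted p of 0.371 in limma. The enzymes that join PEP to oxaloacetate had the higher ratios. PEP carboxylase, which makes oxaloacetate from PEP, reached 2.01 for LEMGIv51_A5_016663_1, and PEP carboxykinase, which runs the other way, reached 3.67 for LEMGIv51_A5_021609_1. Neither of the last genes could be tested, as a condition mean exceeded 1000.

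On the side of pyruvate, the largest ratio among 10 pyruvate kinase genes was 1.60 for LEMGIv51_A5_005342_1, with an adjusted p of 0.163 in limma. Pyruvate, phosphate dikinase, which turns pyruvate back into PEP, stood at 0.955 for LEMGIv51_A5_019215_1. The 4 pyruvate transport genes were split, from 0.689 for LEMGIv51_A5_010500_1 to 1.59 for LEMGIv51_A5_013567_1, with a median log2 ratio of -0.07. Among enzymes that use pyruvate, the plastidic pyruvate dehydrogenase complex reached a log2 ratio of 0.97 for LEMGIv51_A5_004830_1, with an adjusted p of 0.344, and 8 of its 9 genes had the higher mean under ONS. The mitochondrial complex and citrate synthase reached a ratio of 1.25 for LEMGIv51_A5_001719_1, and ATP citrate lyase, which makes cytosolic acetyl-CoA, 1.35 for LEMGIv51_A5_012913_1.

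NADPH is the second product of the NADP-dependent forms, and 12 genes of other NADPH-forming dehydrogenases were measured beside them. Their median log2 ratio was -0.01 and 6 of 12 had the higher mean under ONS, against 0.83 and 0.54 for A5_001160_1 and A5_010364_1. The largest change in either direction was the lower mean of a phosphogluconate dehydrogenase of the oxidative pentose phosphate pathway, LEMGIv51_A5_005055_1, whose mean was 4299 under INS and 134 under ONS, a log2 ratio of -5.00. Its reads per library were not searched, as a condition mean exceeded 1000, so no test was made here. The highest ratio of the list was 2.09 for a glucose-6-phosphate dehydrogenase, LEMGIv51_A5_008439_1, with an adjusted p of 0.248 in limma. The genes of this enzyme were split. LEMGIv51_A5_015264_1 had means of 4494 under INS and 1350 under ONS, a ratio of 0.300, with no test. RuBisCO, the marker of green tissue, had the higher mean under ONS in 13 of 15 genes, against 53.1% of all genes whose mean was 50 or more. The median log2 ratio was 0.39, and 0.30 for RuBisCO genes whose mean was 50 or more. The widest change was a lower mean for LEMGIv51_A5_020507_1 (2735 under INS and 613 under ONS). In the study's cultures roots made up a larger share of dry weight under ONS. The part of green tissue or of roots in the ratios of the malic enzyme genes was not tested.

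**Figure D4:**
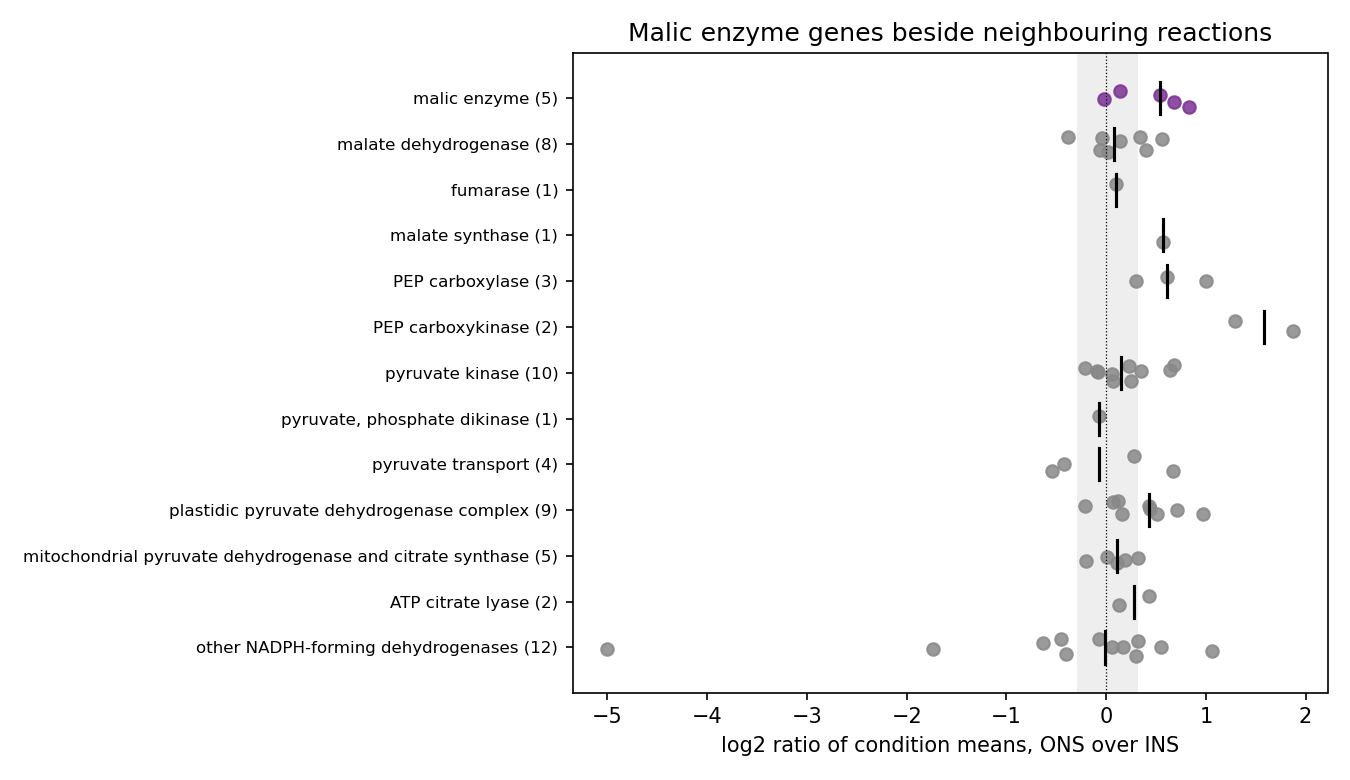
Log2 ratio of ONS to INS condition means (horizontal axis) for the malic enzyme genes (purple) and for the genes of 12 lists of neighbouring reactions (grey), with the number of genes in brackets and the median of each list as a black bar. The grey band is the middle 50% of genes with a mean of at least 50. The malic enzyme genes reach from -0.02 to 0.83, and genes of several lists lie beyond them on either side. PEP carboxykinase lies furthest to the right and 1 phosphogluconate dehydrogenase furthest to the left at -5.00.

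Over the 6 libraries, 83 genes of the reaction table, each with known library reads and a mean not under 50, were compared with A5_001160_1, the only member known in every library. The most alike was an alanine-glyoxylate transaminase of photorespiration, LEMGIv51_A5_007363_1, with a Pearson r of 0.95 on the log2 scale. In order of depth, its normalised read counts were 296, 452 and 408 under INS and 676, 578 and 693 under ONS. Next came the cytosolic pyruvate kinase LEMGIv51_A5_005342_1 named above, with r of 0.92, at 350, 386 and 484 under INS and 631, 506 and 812 under ONS. Both genes, like A5_001160_1, had every ONS library above every INS library and their lowest INS value in the deepest INS library. Of all tested genes, 11.5% had this separation and 43.1% had their lowest INS value in that library. The points share libraries and their scaling, the condition difference enters r, and the genes were ranked from all 83. The r values and the shared separation, which the ranking favours, therefore describe likeness and nothing more.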

How the data were processed

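Per the labels and the study's methods, the authors mapped paired-end reads of 6 libraries to predicted transcripts with Bowtie, scaled gene counts by DESeq size factors and averaged the 3 libraries of a condition; the deposited signal values are these means. Columns with the authors' own fold changes, p-values and calls were not used. Here the weight of 1 read in each library was found from the means, and every set of whole reads that rounds to the printed means (tolerance 1.01 times the rounding error) was searched (Python 3.11.15, numpy 2.4.6, scipy 1.17.1, numba 0.67.0). Of 12279 genes with both means under 1000, 11610 had a single set, 669 several and 0 none. In simulated reads, 2901 of 2901 single sets were exact. That simulation used the same weights and rounding as the search, so it could not come out otherwise. Errors in the weights were not checked by it.

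Differences were tested with limma 3.58.1 (R 4.3.3, mean-variance trend) on log2(normalised reads + 1) in the 10519 genes whose mean reached 10, with Benjamini-Hochberg adjustment, a threshold of 0.05 and more than 4-fold. Fold changes on this scale understate those of low genes. In simulated ONS against INS data (10503 genes, the same dispersion for all), 99% of log2 changes of 1.5 had an adjusted p of at most 0.05 in limma. So did 13 unchanged genes. The fold threshold was not applied there, and neither smaller changes nor wider spreads were simulated. Each possible set of a member entered the same model, and filters, pseudocounts, scaling, moderation and left-out libraries were varied. Members and lists were chosen with earlier results of these data known. Named genes were all members, called genes, and the 2 genes most correlated with a fully resolved member. From each list, the gene with the largest change of means in either direction (mean of at least 50) was also named. LEMGIv51_A5_008439_1, LEMGIv51_A5_010500_1, LEMGIv51_A5_015264_1 and LEMGIv51_A5_015061_1 were named after their values were seen. No sequences were used here.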

Additional observations from a re-analysis of the deposited data

How the results depend on the processing

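A5_001160_1 was called under no alternative run, and the other members under no possible set of reads in the main model. For A5_001160_1 the log2 difference stayed between 0.75 and 0.90 when 1 library was left out, with adjusted p from 0.0985 to 0.199 (limma), and between 0.80 and 0.83 under the other settings, with adjusted p from 0.0533 (precision weights on whole reads, added after seeing the data) to 0.0872 (no trend). Over all genes 278 were called, 221 to 304 with 1 library left out, 172 with a mean of at least 50, 169 with a pseudocount of 10, 596 at more than 2-fold and 629 with no fold threshold. The change of the ratio of NADP-dependent to NAD-dependent reads turned from 1.34 to 0.908 for A5_010364_1 over A5_006332_1 alone. The median log2 change of the lists was 0.34 over tested genes and 0.16 by condition means. A wider tolerance of 1.1 times the rounding error, added after seeing the data, gave A5_006332_1 a further ONS set of 378, 1528 and 665. Its range was 4.04-fold. This set was not entered in the model, so the log2 differences, adjusted p and change of sign given for A5_006332_1 do not cover it. The ratio of forms without each library was not run, since reads of A5_013949_1 and A5_006331_1 could not be separated. No paired analysis was possible because the columns carry no replicate numbers. Reads were known in all 6 libraries for 1 of 5 members, which limits what could be tested.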
